A study of Mus musculus with 12 samples.

Results

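Gene expression was compared between RAW264.7 cells that received esculetin together with oxidized low-density lipoprotein (ox-LDL) and RAW264.7 cells that received ox-LDL with the solvent alone. The libraries were chosen by their labels and are 6 of the 12 of the study, 3 in each group. All 6 were exposed for 24 h to 25 µg/mL of ox-LDL carrying the dye DiI, and esculetin, a coumarin found in several plants, was present at 40 µg/mL or left out, with dimethyl sulfoxide (DMSO) as its solvent. RAW264.7 is an established mouse macrophage line raised from a tumour that a leukaemia virus had induced. It keeps dividing in culture, and therefore stands for tissue macrophages only in part. Since both groups received ox-LDL and no library without it is used here, the effect of ox-LDL itself was not analysed. The comparison asks which genes esculetin changes in macrophages that are taking up modified lipoprotein. The labels do not say whether the libraries of a group came from separate cultures, so the p-values measure the spread between these libraries, which may be technical.

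Macrophages take up modified lipoprotein through scavenger receptors, and particles coated with antibody or complement through Fc and complement receptors. Ingested cholesteryl ester is split in the acid lysosome, and the cholesterol is either exported by transporters of the ABC family or esterified again and kept in lipid droplets, which gives the cell its foamy look. The same cells sense microbes and damage through Toll-like receptors, NF-κB and interferon signalling, and they answer with cytokines and chemokines. Dividing cells, such as this line, run at the same time through a programme of their own. Cyclin D and the E2F factors open DNA synthesis, and a later group of genes for the spindle, the kinetochore and chromosome separation is switched on before mitosis by the MuvB complex with B-MYB and FOXM1. The anaphase-promoting complex with its activator CDC20 then destroys cyclin B and ends mitosis, and the inhibitors of cyclin-dependent kinases can halt the cycle at several points.

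The libraries held 18889131, 18284706 and 20001959 counts with DMSO and 13752842, 14954496 and 18801094 with esculetin, in replicate order. Levels are given in CPM, counts relative to a library total scaled with TMM factors (trimmed mean of M-values), so a level is a share of the RNA of a library and not an amount per cell. In such bulk samples, fewer cells of a kind and less RNA per cell cannot be told apart. Esculetin replicate 1 stood apart from the other 5 libraries in a few abundant transcripts. It held 329359 counts of Rn18s-rs5, an 18S ribosomal RNA locus, which was 2.39% of its total, against 0.128% to 0.198% in the others, and 160695 counts of Lars2, against 1862 to 3570. Without this library the log2 fold changes of Lars2 and Rn18s-rs5 were -0.01 and -0.03 (adjusted p-values 0.961 and 0.878), so both are left out of what follows. The defining macrophage genes were present in all 6 libraries. Csf1r, the receptor for the growth factor of macrophages, lay between 791 and 1760.5 CPM, Cd68 between 499 and 716, Itgam between 23.2 and 45.9 and Adgre1 between 32.5 and 44.2. Marker lists of 6 other cell types were near the bottom of the scale. Their summed levels were at most 6.19 CPM with esculetin and 5.81 CPM with DMSO, both in the list of T and B lymphocytes, and the 9 neutrophil markers together reached 0.207 CPM at most with DMSO and 0.502 with esculetin. The lymphocyte list holds only some genes of the B lineage, however. Outside it, and chosen after their values were seen, Ighm, the heavy chain of immunoglobulin M, stood at 169.9, 182 and 183 CPM and the adaptor Blnk at 45.2, 45.6 and 47.1 CPM with DMSO, and both fell with esculetin.

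Esculetin was accompanied by a broad change of the transcriptome. Of 13277 genes that passed the filter on low counts, 7667 (57.7%) were called, which means an adjusted p-value under 0.05 in edgeR's quasi-likelihood test with Benjamini-Hochberg adjustment, and both directions were nearly equal with 28.7% called higher and 29.0% called lower. The 3 libraries of a group lay wholly above or below those of the other in 64.1% of the genes, higher with esculetin in 31.0% and lower in 33.1%. Most of the called changes were modest. The middle of the distribution was narrow, with log2 fold changes of -0.47 and 0.48 at the 25th and 75th percentiles, and only 10.6% of the genes were called higher and 8.47% lower with a fold change over 2. The upper tail was longer than the lower, at 1.60 for the 95th percentile against -1.33 for the 5th. The share called rose with the level of the gene, from 32.05% of the 1120 genes with a mean under 1 CPM to 73.14% of the 875 genes at 200 CPM or more, so a missing call in a gene of few counts does not show that it was unchanged. Among long noncoding RNAs, 241 of 882 were called higher and 141 lower. Neat1, the scaffold RNA of nuclear paraspeckles and chosen after its values were seen, went from 94.1, 78.5 and 82.7 CPM with DMSO to 1030.4, 642 and 621 with esculetin, and it remained called without esculetin replicate 1, with a log2 fold change of 2.89.

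**Figure D1:**
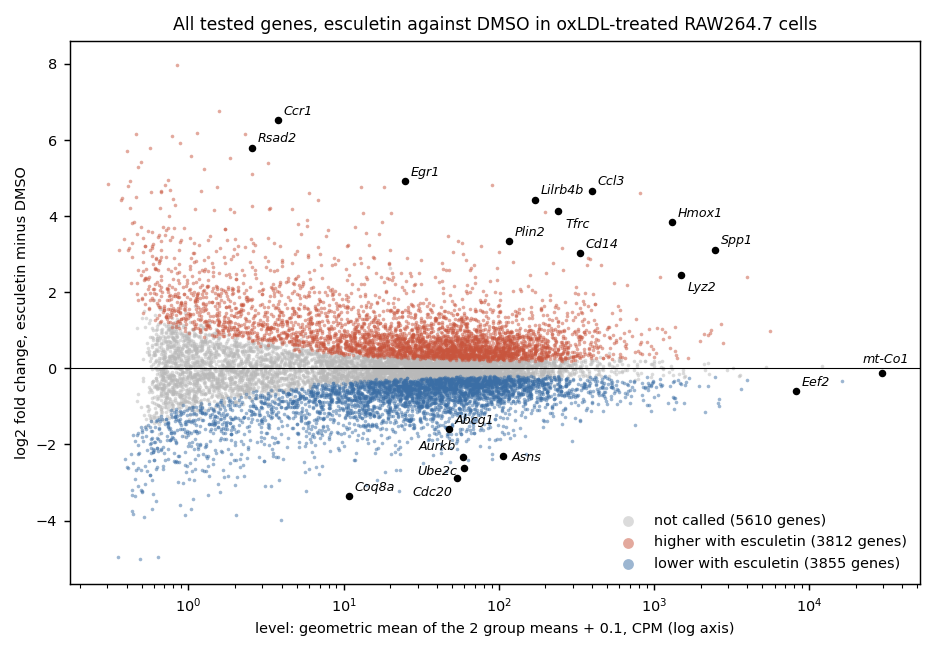
Each point is 1 of the 13277 tested genes, with its level in CPM on a log axis (the geometric mean of both group means after adding 0.1) and its log2 fold change, esculetin minus DMSO. Called genes are red where higher (3812) and blue where lower (3855), and named genes are black, with Ccr1, Ccl3, Tfrc and Plin2 above 2 and the mitotic genes Cdc20, Ube2c and Aurkb below -2.

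Among the called genes that averaged 50 CPM or more and whose groups did not overlap, the 12 largest rises were those of Egr1, Ccl4, Ccl3, Lilrb4b, Tfrc, Lilrb4a, Hmox1, Dhrs9, Sh3kbp1, Plin2, Ptgs2 and Clec5a, which hold an immediate early factor, chemokines, myeloid receptors and the genes of iron uptake, haem breakdown, lipid droplets and prostaglandin synthesis. The 12 largest falls were those of Cdc20, Ccnb2, Ube2c, Mxd4, Prr11, Psrc1, Aurkb, Asns, Knstrn, Zkscan17, Bub1b and Kif22, of which Cdc20, Ccnb2, Ube2c, Psrc1, Aurkb, Knstrn, Bub1b and Kif22 act in mitosis. Egr1, a zinc finger factor switched on within minutes of a stimulus, stood at 4.61, 4.20 and 4.67 CPM with DMSO and 127, 151 and 130.2 CPM with esculetin. Lilrb4b, an inhibitory receptor of myeloid cells (ENSMUSG00000112023, chromosome 10, 51356728 to 51362799), was the most even of the large rises, at 40.3, 33.3 and 36.8 CPM against 802, 791 and 793 CPM. Dhrs9, a retinol and steroid dehydrogenase of the short-chain family, went from 14.8, 13.2 and 14.3 to 121, 167 and 182 CPM, and the endocytic adaptor Sh3kbp1 from 18.2, 15.5 and 17.4 to 134, 179 and 210.1 CPM. On the side of the falls, Mxd4, a partner of MAX that opposes MYC, went from 97.97, 121 and 119 to 24.4, 20.9 and 16.8 CPM and Zkscan17, a zinc finger gene, from 308, 344 and 336 to 78.01, 74.9 and 53.5 CPM. Prr11 fell by 2.40, Psrc1 fell by 2.39 and Knstrn had a log2 fold change of -2.28. Among the 10 genes with the most counts, the elongation factors Eef2 and Eef1a1 fell by 0.60 and 0.34 and Fth1, the heavy chain of ferritin, rose by 0.99 on the log2 scale. P4hb, which forms disulfide bonds in secreted proteins, was not called, at 0.04.

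Gene lists written for this cell type are described by the number of their tested members called in each direction, beside the background of 28.7% higher and 29.0% lower. The 24 lists of macrophage functions held 432 tested genes, of which 250 were called higher and 68 lower, with a median log2 fold change of 0.47. The 12 lists of the cell cycle and of genome upkeep held 301, of which 38 were called higher and 190 lower, with a median of -0.57. Over all tested genes the median was -0.01. Without esculetin replicate 1 the counts were 259 and 69 of 436 for the macrophage lists, and 34 and 193 of 301 for the cell cycle lists.

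**Figure D2:**
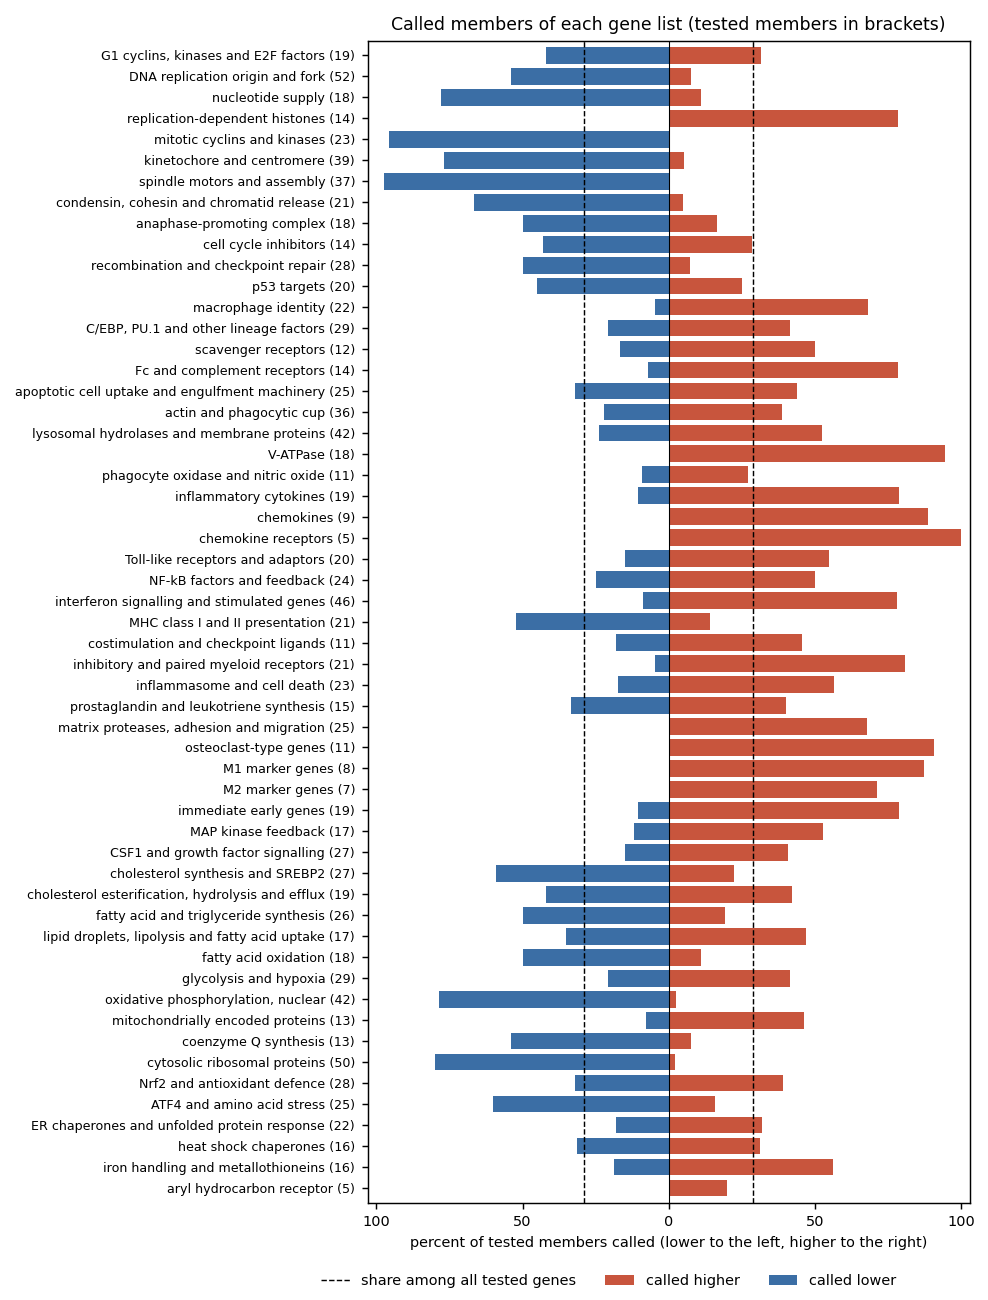
Bars give the percent of the tested members of each list called higher (red, to the right) or lower (blue, to the left) with esculetin, with the number of tested members in brackets, and dashed lines mark the share among all tested genes, 28.7% and 29.0%. Lists of the spindle, the mitotic cyclins, ribosomal proteins and oxidative phosphorylation reach farthest to the left, and chemokine receptors, the V-ATPase, osteoclast-type genes and chemokines farthest to the right.

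The genes that govern the passage through G1 did not move as a group. Of 19 cyclins, kinases and E2F factors, 6 were called higher and 8 lower. Ccnd1, which encodes cyclin D1 and links growth factor signals to the cycle, stood at 248, 273 and 270.2 CPM with DMSO and at 381, 489.7 and 619 CPM with esculetin, a log2 fold change of 0.91 ± 0.14 (SE). Its partner Cdk6 went from 257, 216 and 218 to 412, 435 and 436 CPM. Both were higher in every esculetin library than in any DMSO library. Ccne2, a cyclin of the entry into S phase, rose as well, by 1.08, and so did E2f1 (0.55) and Myc (1.74), the latter from low levels of 3.99, 4.73 and 3.21 CPM to 9.07, 15.5 and 15.1 CPM. Other members fell. Cdk4 fell by 0.41 and Cdk2, the kinase of S phase, by 0.54, while E2f2 went from 65.2, 67.4 and 69.7 to 23.1, 13.9 and 17.8 CPM and the repressive factor E2f7 fell by 1.07. Rb1, the retinoblastoma protein that holds E2F factors back, was not called, at 0.04 ± 0.19 (SE), with groups that overlapped.

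The machinery of DNA synthesis was lower in part. Of 52 genes of replication origins and forks 28 were called lower and 4 higher, with a median of -0.36, and of 18 genes of nucleotide supply 14 were called lower and 2 higher, with a median of -0.83. Pold2 and Pold1, subunits of the lagging strand polymerase, fell by 1.71 and 1.24, and the ligase Lig1 by 1.24. Dnmt1, which copies DNA methylation behind the fork, went from 509.8, 537 and 546 to 259, 249 and 242 CPM. The replicative helicase MCM was uneven among its subunits, since Mcm7 fell by 0.84, Mcm5 by 0.60 and Mcm6 by 0.34, while Mcm3 and Mcm4 were not called, at -0.15 and 0.14. The licensing factor Cdt1 fell by 0.83, and its partner Cdc6 was not called, at 0.04. Against this direction went Pcna, the sliding clamp of the polymerases, which rose from 112, 105 and 113 CPM to 177, 207 and 263 CPM, a log2 fold change of 0.97 ± 0.13 (SE). The other higher members were Rmi1 (1.23), Orc3 (0.31) and Orc6 (0.36), and the count of 4 was 2 without DMSO replicate 2 and 2 without DMSO replicate 3. In nucleotide supply the largest falls were those of enzymes that carry carbon units and build purines and pyrimidines. Mthfd2 went from 165, 168 and 161 to 35.6, 41.98 and 58.8 CPM, Shmt2 from 247, 285 and 294 to 77.8, 78.3 and 84.2 CPM and Impdh2 from 312, 341 and 339 to 114, 130.3 and 133 CPM. The groups were far apart in these enzymes, whereas Rrm2, the regulated subunit of ribonucleotide reductase, was not called, at 0.15 ± 0.08 (SE), and Tyms, which makes thymidylate, was higher by 0.47.

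Histone genes that are read in S phase could be followed only in part, because 35 of 49 had too few counts for the test. Their transcripts end in a stem-loop and carry no poly(A) tail, so their level in a library depends on how the RNA was selected, which is not given in the sources used here. Of 14 tested members 11 were called higher and 0 lower, with a median of 1.91. H4c9 went from 1.71, 1.40 and 1.41 to 14.1, 16.8 and 21.1 CPM and H2bc4 from 12.9, 12.9 and 10.7 to 27.3, 36.3 and 46.7 CPM. Most of the others stayed under 5 CPM in every library. The copies of a histone are nearly identical, and the assignment of reads to a copy is therefore uncertain.

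The clearest direction in the cell cycle was that of mitosis. The 5 lists of mitotic cyclins and kinases, kinetochore, spindle, condensin with chromatid release, and the anaphase-promoting complex held 138 genes, all tested, of which 111 were called lower and 6 higher, with a median log2 fold change of -1.08. Without esculetin replicate 1 the counts were 115 lower and 6 higher, with a median of -1.15. Promoters of mitotic genes often hold the cell cycle genes homology region (CHR, here TTTGAA), the contact of the MuvB complex, and CCAAT boxes, where the factor NF-Y binds. In the 250 bases before the start of the canonical transcript, on either strand, the CHR letters were found in 30 of the 138 promoters (21.7%) and in 12.1% of 11163 tested protein-coding genes, and CCAAT in 71 (51.4%) against 36.4%. The shares differed between the lists, with CHR letters in 27.0% of the spindle promoters and 12.8% of those of the kinetochore. CHR letters were not particular to genes that fell. They were found in 12.0% of all genes called lower and 12.2% of those called higher. The macrophage identity list had them in 22.7% and the inflammasome list in 30.4%. CCAAT was somewhat more frequent among genes called lower, at 38.9% against 34.5% of those called higher. It was also found in 81.8% of the chaperones of the endoplasmic reticulum. The shares give occurrence of letters and not binding. The following promoters are those of 4 genes among the largest falls, and they are shown to let the presence and spacing of both elements be read (GRCm39, 5′ to 3′ on the strand of the gene, with CHR and CCAAT letters of either strand in capitals). They lie at chr4:118294611-118294860 and chr9:70328875-70329124 on the minus strand, chr11:68936217-68936466 on the plus strand and chr2:164611568-164611817 on the plus strand.
Cdc20: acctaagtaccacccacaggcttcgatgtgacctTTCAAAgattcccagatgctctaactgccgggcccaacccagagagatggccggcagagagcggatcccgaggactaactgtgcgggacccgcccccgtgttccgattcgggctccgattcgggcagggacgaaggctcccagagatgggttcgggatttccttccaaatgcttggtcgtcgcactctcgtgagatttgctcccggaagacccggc
Ccnb2: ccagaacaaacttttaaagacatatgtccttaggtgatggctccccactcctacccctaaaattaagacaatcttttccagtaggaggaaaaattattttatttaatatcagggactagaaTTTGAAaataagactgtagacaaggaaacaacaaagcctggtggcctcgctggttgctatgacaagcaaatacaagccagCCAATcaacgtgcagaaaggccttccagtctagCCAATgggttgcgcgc
Aurkb: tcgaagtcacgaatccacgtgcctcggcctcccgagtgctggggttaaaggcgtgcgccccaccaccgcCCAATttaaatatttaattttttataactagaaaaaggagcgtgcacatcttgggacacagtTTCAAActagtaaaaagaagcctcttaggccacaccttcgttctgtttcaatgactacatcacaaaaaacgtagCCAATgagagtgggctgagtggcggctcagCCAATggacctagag
Ube2c: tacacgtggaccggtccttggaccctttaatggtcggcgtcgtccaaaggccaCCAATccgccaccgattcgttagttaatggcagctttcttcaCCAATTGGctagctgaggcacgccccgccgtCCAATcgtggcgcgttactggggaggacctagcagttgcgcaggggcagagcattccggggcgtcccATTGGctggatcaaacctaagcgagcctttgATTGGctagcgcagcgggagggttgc
The Cdc20 promoter, that of the largest fall, had CHR letters 216 bases before the start and no CCAAT box. The Ccnb2 promoter had its CHR letters 129 bases and its CCAAT boxes 49 and 16 bases before the start. The Aurkb promoter had CHR letters at 119 bases and CCAAT boxes at 181, 45 and 15 bases. The Ube2c window held 6 CCAAT matches, of which those at 155 and 152 bases overlap on opposite strands, and no CHR letters.

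Cyclins and kinases of mitosis were nearly uniform, with 22 of 23 called lower and 0 higher. Ccnb1, which encodes cyclin B1, the activator of CDK1, stood at 100.0, 111 and 104 CPM with DMSO and at 27.4, 28.1 and 25.4 CPM with esculetin, a log2 fold change of -1.96 ± 0.09 (SE) (adjusted p-value 8.74e-08). Ccnb2 went from 110.1, 118 and 117 to 24.1, 15.3 and 14.2 CPM, and Cdk1 itself from 91.3, 98.2 and 91.9 to 39.4, 35.2 and 40.4 CPM. In all 3 genes the lowest DMSO library lay more than 2 times above the highest esculetin library. The kinases that build and check the spindle behaved likewise. Plk1, polo-like kinase 1, went from 68.5, 77.3 and 83.03 to 15.1, 13.3 and 12.4 CPM, Aurka from 99.3, 109.8 and 101 to 31.1, 30.9 and 32.6 CPM and Aurkb, the kinase of the chromosomal passenger complex, from 134, 132 and 134 to 30.8, 22.8 and 25.2 CPM. The transcription factors of this programme fell too, Foxm1 by 1.33 and Mybl2, which encodes B-MYB, by 0.90, and so did both Cdc25b (-1.51) and Wee1 (-1.64), which remove and add the inhibitory phosphate on CDK1. The member that was not called was Mastl, the greatwall kinase, at -0.27 ± 0.21 (SE), with groups that overlapped.

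At the kinetochore, the protein assembly that ties chromosomes to the spindle, 30 of 39 genes were called lower and 2 higher. Bub1b, the checkpoint kinase BUBR1, went from 199, 190.4 and 199.8 to 46.3, 39.7 and 37.1 CPM, and Cdca8, which encodes borealin of the passenger complex, from 98.5, 106 and 99.6 to 26.6, 23.2 and 21.02 CPM. Cenpa, the histone that marks the centromere, went from 194, 193 and 196 to 69.1, 52.3 and 40.3 CPM. In Cenpa the esculetin libraries were more scattered than the DMSO libraries but remained well below them. The outer NDC80 complex moved less, with Ndc80 lower by 0.48 and Nuf2 by 0.91. Mis12 and Cenpt rose, by 0.57 and 0.56, and Bub1 and Knl1 were not called, at -0.12 and -0.33. Spindle motors and assembly factors gave 36 of 37 called lower and 0 higher, with a median of -1.59, the lowest of the 12 cell cycle lists. Tpx2, which activates Aurora A on the spindle, went from 192, 186 and 186 to 61.5, 58.1 and 56.3 CPM, and Racgap1, of the centralspindlin complex, from 149.5, 151 and 162 to 43.9, 35.6 and 32.3 CPM. Pif1, listed here for its mitotic expression and known as a DNA helicase, and Arhgef39, a guanine nucleotide exchange factor, were the members with the largest falls, -3.23 ± 0.23 (SE) and -2.94 ± 0.22 (SE). The kinesin Kif11, which pushes the poles apart, fell by 0.95 and Kif22 by 2.22. Kif15 was not called, at -0.10.

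Genes of chromosome shape and separation were split by complex. Of 21 members 14 were called lower and 1 higher. Espl1, the separase that cuts cohesin, went from 107, 120.4 and 109 to 27.1, 26.6 and 23.5 CPM, and its guardian Pttg1, securin, from 53.1, 54.3 and 55.2 to 10.3, 7.84 and 7.53 CPM. Both groups were well separated in either gene. Among condensin subunits Ncapd2 fell by 1.72 and Ncaph by 1.17, whereas the shared ATPase Smc2 was not called, at -0.21 ± 0.19 (SE). Cohesin moved little, with Rad21 lower by 0.40, Stag2 higher by 0.40, and Smc1a and Smc3 not called, at 0.01 and 0.12. Top2a, the topoisomerase of dividing cells, fell by 1.07. Mki67, the common proliferation marker, was called at -0.70 ± 0.22 (SE), yet its groups overlapped, since esculetin replicate 1, at 345 CPM, lay above DMSO replicate 2, at 342 CPM. Of 18 genes of the anaphase-promoting complex 9 were called lower and 3 higher, and the falls were largest in its activator and its ubiquitin carrier. Cdc20 stood at 138, 155 and 147 CPM with DMSO and at 21.4, 21.3 and 16.95 CPM with esculetin, and Ube2c went from 134, 154 and 153 to 29.9, 23.2 and 19.7 CPM. Fzr1, the activator used in G1, fell by 0.72, and the core subunits Cdc16, Cdc23 and Anapc11 were not called, at -0.08, -0.12 and -0.19. The members called higher, Cdc27, Anapc4 and Anapc13, numbered 1 without DMSO replicate 3.

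**Figure D3:**
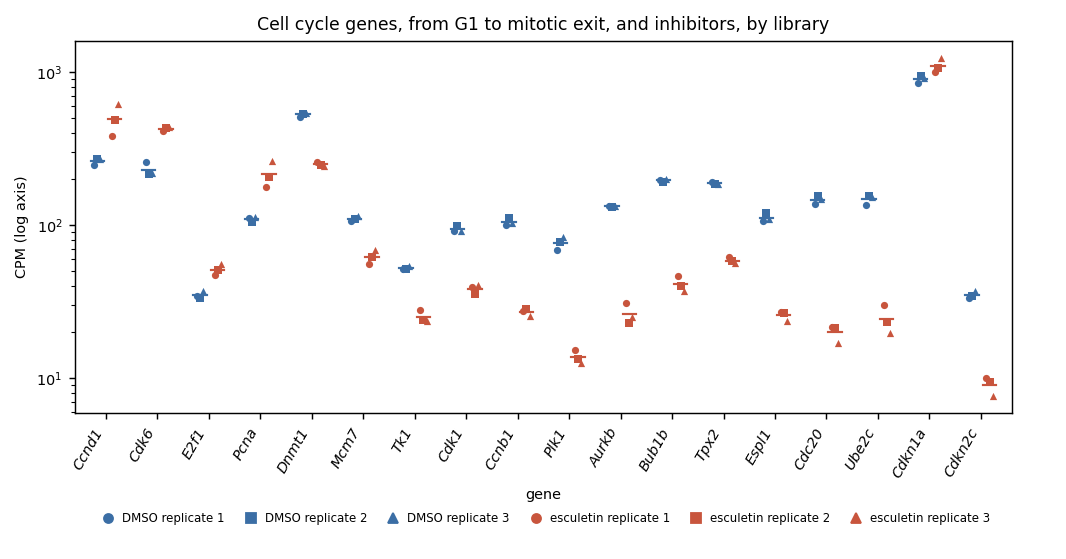
Levels in CPM (log axis) of 18 cell cycle genes in each library, blue for DMSO and red for esculetin, with the symbol giving the replicate and the short line the mean of the 3 libraries. From Cdk1 to Ube2c all esculetin libraries lie below all DMSO libraries, while those of Ccnd1, Cdk6, E2f1, Pcna and Cdkn1a lie above.

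Inhibitors of the cycle gave no common direction, with 4 of 14 tested members called higher and 6 lower. Cdkn1a, which encodes p21, the main inhibitor under p53, was already at 852, 951 and 913 CPM with DMSO and was at 1001, 1069.8 and 1248 CPM with esculetin, a log2 fold change of 0.29 ± 0.10 (SE) (adjusted p-value 0.0307). This small rise had separate groups. Cdkn1b, the inhibitor p27, fell by 0.62, and Cdkn2c and Cdkn2d, which bind CDK4 and CDK6, fell by 1.97 and 1.10. Cdkn2a and Cdkn2b had 0 counts in every library, which does not exclude a level too low to be counted. Hexim1, an inhibitor of the elongation kinase CDK9, rose from 22.7, 21.7 and 22.3 to 39.2, 45.05 and 63.02 CPM, and Ccng1 and Btg2 rose by 0.68 and 0.50. The p53 targets were as mixed, with 5 of 20 called higher and 9 lower. Mdm2, the ligase that degrades p53, went from 204, 180.3 and 187 to 647, 648 and 649.8 CPM, the largest rise of the list, while Bbc3, which encodes the killer protein PUMA, went from 81.5, 93.9 and 93.3 to 29.4, 26.3 and 25.2 CPM. Trp53 itself fell by 0.61, Zmat3 fell by 1.45, and Bax was not called, at -0.18. Polk and Sesn2 rose by 0.41 and 0.45, and the 5 higher p53 targets, with Cdkn1a and Ccng1 among them, numbered 3 without DMSO replicate 2, without DMSO replicate 3 or without esculetin replicate 2. Of 28 genes of recombination and checkpoint repair 14 were called lower and 2 higher, with a median of -0.23. Exo1, a resection nuclease, and Fancm rose by 0.64 and 0.51. Fancd2 fell by 0.75 and Brca1 by 0.42. Brca2 and Chek1 were not called, at 0.43 and 0.15, and neither were the checkpoint kinases Atm and Atr, at -0.10 and 0.01.

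Genes that mark macrophages rose in most cases. Of 22 tested members of the identity list 15 were called higher and 1 lower, with a median of 0.60. Cd14, which hands bacterial lipid to Toll-like receptor 4, stood at 111, 115 and 126 CPM with DMSO and at 752, 921 and 1186 CPM with esculetin, a log2 fold change of 3.02 ± 0.15 (SE) (adjusted p-value 1.14e-07). Lyz2, the lysozyme of myeloid cells, went from 631, 683 and 599.7 to 2584, 3199.7 and 4704 CPM, and Mpeg1, a pore protein of the phagosome, from 67.9, 64.2 and 71.4 to 264, 357 and 497 CPM. In all 3 genes esculetin replicate 1 was the lowest and replicate 3 the highest of its group, and all lay above the DMSO libraries. Csf1r rose by 0.96, Cx3cr1 by 1.75, and the integrin subunits Itgb2 and Itgam of complement receptor 3 by 0.98 and 0.71. Adgre1, the F4/80 antigen, rose by 0.31, the lower member was the actin regulator Coro1a, at -0.28, and Cd68, Ptprc and Tyrobp were not called, at 0.21, -0.27 and 0.17. Markers of resident tissue macrophages were scarcely present, with 0, 2 and 1 counts of Mrc1 with DMSO and 0, 2 and 6 with esculetin, and 3, 2 and 1 against 12, 7 and 4 of Mertk.

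Of 29 tested factors that shape the myeloid lineage 12 were called higher and 6 lower. Cebpb, which encodes C/EBPβ, stood at 36.1, 39.5 and 39.8 CPM with DMSO and at 83.4, 85.3 and 113 CPM with esculetin, a log2 fold change of 1.29 ± 0.12 (SE). Other members of its family moved less. Cebpd went from 7.78, 6.67 and 7.69 to 11.6, 7.97 and 12.9 CPM and was called, Cebpa was not called, at 0.58 ± 0.28 (SE), and Cebpg fell by 0.42. Zeb2, a repressor kept by tissue macrophages, went from 92.3, 75.03 and 75.3 to 182, 209.6 and 236 CPM. Spi1, the master factor PU.1, rose by 0.48 and Nfatc1 by 0.77. Among the factors that drive lysosome genes the direction was opposite within the family, since Tfeb fell from 20.99, 24.7 and 24.3 to 10.8, 9.88 and 9.48 CPM and Tfe3 fell by 0.70, whereas Mitf rose by 0.39. Pparg and Maf did not reach the filter.

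Receptors for modified lipoprotein and other cargo gave a mixed picture. Of 12 tested scavenger receptors 6 were called higher and 2 lower. Colec12, a collectin that binds oxidized lipoprotein, went from 90.97, 83.9 and 79.7 to 371, 463 and 622 CPM. Cd36, the class B receptor, was at 3.89, 3.23 and 4.48 CPM with DMSO and 10.5, 9.13 and 7.75 CPM with esculetin, and Msr1, the class A receptor, was at 1.45, 1.99 and 1.90 against 5.34, 6.75 and 9.70 CPM. Both were called higher with groups that did not overlap. Lrp1, a large receptor for remnant particles and proteases, rose from 2098, 2326 and 2184 to 3417, 3430.0 and 3694 CPM. Scarb1, the receptor for high-density lipoprotein, fell from 296, 322 and 320.4 to 152, 163 and 151 CPM, and Cd5l fell from 2.02, 2.21 and 2.19 to 0.293, 0.750 and 0.558 CPM. Olr1, a further receptor for oxidized lipoprotein, had 1, 1 and 0 counts with DMSO and 6, 1 and 4 with esculetin and was not tested. Fc and complement receptors were called higher in 11 of 14 cases and lower in 1. Cd93, a receptor of the C1q type, had 0, 3 and 2 counts with DMSO and 22, 36 and 51 with esculetin. C3ar1, the receptor for the complement fragment C3a, went from 5.49, 5.38 and 3.65 to 55.9, 79.5 and 109 CPM, the activating Fcgr3 from 13.7, 11.8 and 14.2 to 33.1, 40.5 and 36.8 CPM and Fcgr4 from 1.87, 1.99 and 2.48 to 9.51, 11.4 and 11.7 CPM. Fcgr2b, the inhibitory Fc receptor, rose by 0.82, Fcgr1 was not called, at 0.12, and Fcgrt, which recycles antibody, fell by 0.56.

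Genes for the removal of dying cells were balanced, with 11 of 25 called higher and 8 lower and a median of 0.01. Mfge8, a bridge between phosphatidylserine and integrins, went from 307, 356 and 325 to 129, 109 and 102 CPM, and the integrin subunits it meets differed, with Itgav higher by 1.29 and Itgb5 lower by 0.96. Axl fell from 5.24, 5.75 and 5.89 to 1.54, 1.43 and 1.73 CPM and its relative Tyro3 rose from 0.207, 0.269 and 0.486 to 1.83, 1.43 and 1.67 CPM. On the side of the signals that restrain engulfment, Cd47 and its receptor Sirpa rose by 0.80 and 0.83. The actin genes of the phagocytic cup gave 14 of 36 called higher and 8 lower, and 18 higher and 8 lower without esculetin replicate 1. The kinase Syk, which acts below Fc receptors, rose by 0.82 and Lyn by 0.90, while Pik3cd, a catalytic subunit of phosphoinositide 3-kinase, went from 106, 113 and 107 to 42.6, 43.5 and 42.1 CPM and Pik3cb from 79.3, 71.2 and 72.8 to 138, 173 and 212 CPM. Within the Arp2/3 complex, which branches actin, Actr2 and Arpc5 rose by 0.83 and 0.81, Arpc1b fell by 0.86, and Actr3, Arpc2, Arpc3 and Arpc4 were not called.

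The proton pump of the lysosome rose nearly as a whole. Of 18 tested V-ATPase genes 17 were called higher and 0 lower, with a median log2 fold change of 0.72, and the member not called, Atp6v1f, was at 0.24 ± 0.10 (SE) and was called without esculetin replicate 1. Atp6v0d2, the subunit of osteoclasts and some macrophages, went from 13.5, 10.7 and 10.99 to 68.4, 86.4 and 101 CPM. Atp6v0a1 went from 30.4, 33.9 and 28.8 to 61.3, 76.2 and 107 CPM and Atp6v1a, the catalytic subunit, from 578, 508 and 534 to 824, 960.4 and 1130.3 CPM. Esculetin replicate 1 was the lowest and replicate 3 the highest of the group in these 3 subunits. The hydrolases and membrane proteins of the lysosome were less uniform, with 22 of 42 called higher and 10 lower. The cathepsins Ctsb and Ctsd rose by 0.87 and 0.98, and Asah1, acid ceramidase, went from 86.04, 77.4 and 73.6 to 190.1, 235 and 231 CPM. Ctss fell by 0.48, Ctsc by 1.23 and Grn, the progranulin gene, by 0.61. For cholesterol, Npc1 and Npc2, which pass it out of the lysosome, rose by 0.37 and 0.36, and Lipa, the acid lipase that frees it from its ester, was not called, at -0.02 ± 0.08 (SE). The phagocyte oxidase stood near its DMSO level in several subunits. Rac2 fell by 0.42, whereas Cybb, Cyba, Ncf1 and Ncf4 were not called, at -0.15, 0.04, 0.05 and 0.15. Acod1, which makes itaconate, and the arginase Arg2 rose by 2.25 and 2.03. Nos2, the inducible nitric oxide synthase, was at 6.74, 4.89 and 7.005 CPM against 13.98, 9.61 and 5.69 CPM, with groups that overlapped.

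Cytokine genes rose in most cases, with 15 of 19 tested members called higher and 2 lower and a median of 1.71. Tnf stood at 16.1, 16.6 and 16.4 CPM with DMSO and at 94.2, 109.9 and 131 CPM with esculetin, a log2 fold change of 2.77 ± 0.12 (SE). Spp1, which encodes osteopontin, went from 918, 813 and 797 to 4793, 7442 and 9729.7 CPM, and Vegfa, the vascular growth factor, from 179, 169 and 178 to 627, 559 and 533 CPM. In Spp1 the esculetin libraries spread over a range of more than 2 times, with replicate 1 lowest, and in Vegfa replicate 1 was highest. Igf1, Il1rn and Pdgfb rose by 3.09, 2.92 and 2.02, the second of which encodes the natural antagonist of interleukin 1. Lif, a cytokine of the interleukin 6 family, had 3, 3 and 1 counts with DMSO and 35, 29 and 68 with esculetin. Mif and Gdf15 fell, by 0.81 and 1.46. Classical products of stimulated macrophages were hardly read. Il6 had 0 counts in every library, Il1b had 1, 0 and 1 counts with DMSO and 0, 3 and 4 with esculetin, and Il12b 0, 0 and 0 and 0, 3 and 2.

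Of 20 chemokine genes 9 were tested, of which 8 were called higher and 0 lower, with a median of 2.88. Ccl3 and Ccl4, neighbours on chromosome 11 that draw monocytes, went from 75.99, 78.5 and 81.9 to 1076, 2122 and 2829.6 CPM and from 17.3, 18.02 and 15.9 to 277, 473 and 693 CPM. Ccl9 went from 139, 146 and 146 to 651, 1065 and 1447 CPM. Esculetin replicate 1 was the lowest and replicate 3 the highest in all 3 genes, and replicate 1 still lay more than 4 times above the highest DMSO library. Cxcl2, which attracts neutrophils, had 0, 0 and 1 counts with DMSO and 51, 88 and 148 with esculetin, and Cxcl10, an interferon target, 8, 13 and 10 and 78, 127 and 299. Ccl2 had 0, 0 and 0 counts with DMSO and 1, 0 and 4 with esculetin, and Cxcl1 had 0 in every library. The 5 tested chemokine receptors were all called higher. Ccr1, a receptor for CCL3, had 6, 8 and 6 counts with DMSO and 210, 458 and 879 with esculetin, Cx3cr1 went from 41.001, 42.3 and 43.2 to 144, 137 and 144 CPM, Cxcr3 rose by 2.35 and Ccrl2 by 0.95, and Ccr2 had 5, 2 and 5 counts against 32, 54 and 40.

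Sensors of microbes were called higher in 11 of 20 tested cases and lower in 3. Tlr4 went from 28.4, 22.1 and 22.4 to 69.5, 75.99 and 78.6 CPM, Tlr13, which reads bacterial ribosomal RNA, from 21.8, 16.5 and 14.4 to 92.2, 114 and 116 CPM, and Tlr7 rose by 1.34. Tlr2 and Tlr9 fell, by 0.42 and 0.92, and so did their chaperone Cnpy3 (-0.31). Among the adaptors, Ticam2 rose by 0.92 and Ticam1 by 0.34, and Myd88, Traf6 and Irak4 were not called, at -0.29, 0.11 and -0.08. Of 24 tested NF-κB factors and targets 12 were called higher and 6 lower, 3 lower without DMSO replicate 3. Among the genes of inhibitors of NF-κB, Nfkbia rose by 1.21 and Tnfaip3 by 0.35, and Nfkbib fell by 0.41. Among the subunits Rela rose by 0.62, Rel and Nfkb2 fell by 0.67 and 0.27, and Nfkb1 and Relb were not called, at 0.16 and -0.07. Cd40 fell from 4.51, 4.52 and 4.72 to 1.17, 0.886 and 0.613 CPM. Ptgs2, the inducible cyclooxygenase, went from 19.4, 17.1 and 18.8 to 173, 201 and 168 CPM, a log2 fold change of 3.29 ± 0.11 (SE), and Ptges, which turns its product into prostaglandin E, from 4.51, 5.81 and 4.91 to 14.2, 15.5 and 17.6 CPM. The rest of the list of prostaglandin and leukotriene synthesis was split, with 6 of 15 called higher and 5 lower, and Lta4h and Alox5ap of the leukotriene branch fell by 0.66 and 0.40.

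Of 23 tested genes of the inflammasome and of cell death 13 were called higher and 4 lower, 2 lower without DMSO replicate 3. Nlrp3, the sensor of the best known inflammasome, went from 30.01, 35.8 and 32.2 to 108, 141 and 171 CPM, and Casp1 and Casp4 rose by 0.81 and 2.02. Pycard, which joins sensor and caspase, had 5, 5 and 2 counts with DMSO and 6, 2 and 2 with esculetin, and RAW264.7 cells are known to lack this adaptor. Of the necroptosis genes Ripk1 went from 27.6, 27.6 and 24.8 to 69.9, 75.6 and 82.3 CPM and Mlkl rose by 1.75, while Ripk3 was not called, at -0.03. The survival genes Bcl2l1 and Bcl2 rose, Bcl2l1 from 28.9, 29.96 and 28.5 to 95.8, 143 and 161 CPM and Bcl2 by 1.17. Mcl1, of the same family, was not called, at 0.01 ± 0.08 (SE). Bid and Bak1, which open mitochondria in apoptosis, fell by 0.28 and 0.46.

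Interferon-stimulated genes rose together. Of 46 tested genes of interferon signalling and response 36 were called higher and 4 lower, with a median log2 fold change of 1.59, and 38 and 3 of 47 without esculetin replicate 1, with a median of 1.96. The 4 lower members, Bst2, Tap1, Psmb8 and Psmb9, of which the last 3 serve antigen processing, numbered 1 without DMSO replicate 3. Promoters of such genes hold the interferon-stimulated response element (ISRE, searched as a pair of GAAA words set 2 bases apart), the contact of the factor ISGF3. It was found in 15 of the 46 promoters (32.6%) and in 3.0% of all tested protein-coding genes. Of these 15 genes 13 were called higher, beside 36 of the 46 in the whole list. Bst2, which also holds it, fell by 0.61, and Ifi47 was not called, at 0.57 ± 0.31 (SE). Most members called higher thus had no such letters in the window. Over all protein-coding genes, the letters were found in 3.8% of those called higher and 2.5% of those called lower. The promoters of Isg15 (chr4:156285304-156285553, minus strand) and Ifit1 (chr19:34618021-34618270, plus strand) are given as examples of a dense and a spaced arrangement, with ISRE letters of either strand in capitals (GRCm39, 5′ to 3′ on the strand of the gene).
Isg15: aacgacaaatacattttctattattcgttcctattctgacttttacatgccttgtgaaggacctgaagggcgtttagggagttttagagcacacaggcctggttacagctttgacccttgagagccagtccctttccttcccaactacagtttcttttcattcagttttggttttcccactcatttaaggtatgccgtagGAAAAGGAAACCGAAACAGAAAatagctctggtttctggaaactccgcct
Ifit1: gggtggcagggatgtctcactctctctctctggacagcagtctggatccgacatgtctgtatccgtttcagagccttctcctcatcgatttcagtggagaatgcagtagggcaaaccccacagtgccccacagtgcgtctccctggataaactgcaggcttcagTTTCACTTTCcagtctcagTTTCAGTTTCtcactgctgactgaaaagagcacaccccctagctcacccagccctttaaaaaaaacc
In Isg15 there were 3 overlapping matches, 50, 44 and 38 bases before the start, and in Ifit1 there were 2, at 86 and 67 bases.

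Isg15, a ubiquitin-like protein, went from 0.726, 0.861 and 0.584 to 3.81, 13.97 and 21.3 CPM, and Ifit1, which binds foreign RNA, from 0.155, 0.376 and 0.146 to 3.73, 10.1 and 17.5 CPM. Rsad2, the antiviral enzyme viperin, had 3, 11 and 3 counts with DMSO and 82, 252 and 471 with esculetin. These genes were nearly silent with DMSO, and with esculetin the lowest library was replicate 1 in each of them. Other members were well expressed already with DMSO. Oas2, a sensor of viral RNA, went from 30.9, 30.3 and 29.9 to 99.4, 129 and 144 CPM, Oas3 rose by 0.85, and Eif2ak2, the RNA-dependent kinase, rose by 1.53. The factors that carry the signal were higher too, Stat2 by 0.72, Irf9 by 0.96 and Irf7 by 1.02. Receptor genes were near their DMSO level, with Ifnar1 higher by 0.21 and Ifnar2 and Ifngr1 not called, at -0.07 and 0.11. Ifnb1, which encodes interferon β, had 0, 0 and 0 counts with DMSO and 6, 16 and 10 with esculetin, below the filter on low counts. Members of the Oas and Ifit families are close copies of each other, and reads may be shared between them.

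Genes of antigen presentation went the other way. Of 21 tested genes of MHC class I and II 11 were called lower and 3 higher, with a median of -0.31, against 7 lower without DMSO replicate 3 and 1 higher without esculetin replicate 2. H2-D1, a class I heavy chain, went from 693, 750.0 and 703 to 451, 516 and 481 CPM, B2m, its light chain, fell by 0.37, and the peptide transporter genes Tap1 and Tap2 fell by 0.33 and 0.66. H2-K1 was not called, at -0.03 ± 0.08 (SE). Against the rest, H2-T23, a nonclassical class I gene, rose from 36.9, 43.2 and 35.8 to 83.4, 115 and 98.8 CPM, and Tapbp and Erap1, which load and trim peptides, rose by 0.29 and 0.33. Ifi30, a reductase that prepares antigen, fell from 238, 285 and 271 to 133, 129.6 and 112 CPM. The class II genes were almost silent, with 2, 1 and 9 counts of H2-Ab1 with DMSO and 0, 0 and 1 with esculetin, and Cd74, the invariant chain, was not called, at -0.13 ± 0.09 (SE).

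Inhibitory and paired receptors of myeloid cells were called higher in 17 of 21 tested cases and lower in 1, with a median of 1.48. Besides Lilrb4b, its close copy Lilrb4a went from 55.2, 42.1 and 45.04 to 869.5, 858 and 731 CPM. Clec4e, the receptor Mincle for mycobacterial glycolipid, went from 17.6, 16.1 and 18.4 to 135, 147 and 154 CPM and Clec5a from 29.6, 22.3 and 23.5 to 194, 223 and 287 CPM. These receptors were even between the esculetin libraries when compared with the chemokines. Lair1 rose by 2.01 and Cd300a by 1.30, while Clec12a fell by 0.50 and Cd33 was not called, at 0.21 ± 0.15 (SE). Vsir, a checkpoint ligand, went from 175, 193 and 180.1 to 688, 732 and 726 CPM, and Cd80, a costimulator of T cells, from 26.7, 20.3 and 19.7 to 52.5, 62.3 and 72.4 CPM. Cd274, which encodes PD-L1, was not called, at -0.32 ± 0.14 (SE).

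Of 25 tested genes of matrix breakdown, adhesion and migration 17 were called higher and 0 lower. Adam8 went from 145, 136 and 134 to 946, 1079.8 and 1085 CPM, Cd44, the hyaluronan receptor, from 199, 217 and 199.7 to 594, 783 and 1016 CPM, and Plau, which encodes urokinase, from 307, 322 and 312 to 726, 1354 and 2231 CPM. In Adam8 the 3 esculetin libraries were within a narrow range, and in Plau replicate 3 was about 3 times replicate 1. The urokinase receptor Plaur rose by 2.51. Mmp12, the elastase of macrophages, had 2, 3 and 0 counts with DMSO and 34, 105 and 187 with esculetin, and Mmp9, a gelatinase, 0, 1 and 3 and 19, 43 and 24. Genes typical of osteoclasts were called higher in 10 of 11 cases and lower in 0. Dcstamp, needed for the fusion of precursors, went from 20.6, 24.1 and 24.1 to 118, 172 and 209 CPM and Car2, carbonic anhydrase, from 38.8, 41.7 and 37.8 to 164, 246 and 321 CPM. Acp5, the tartrate-resistant phosphatase, rose by 1.11, Ctsk went from 1.45, 0.914 and 1.17 to 2.56, 3.27 and 6.97 CPM, and Tnfrsf11a, which encodes the receptor RANK, was not called, at -0.02 ± 0.08 (SE). Lists of the classical (M1) and alternative (M2) states rose side by side among their tested members, with 7 of 8 called higher in the first and 5 of 7 in the second, and 0 lower in either. Egr2 of the M2 list went from 3.01, 3.82 and 3.21 to 20.6, 21.8 and 24.3 CPM, and Socs3 of the M1 list from 7.57, 8.28 and 9.10 to 34.03, 40.8 and 54.3 CPM. Many defining members were not measurable, such as Arg1, with 6, 12 and 3 counts against 9, 2 and 10.

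**Figure D4:**
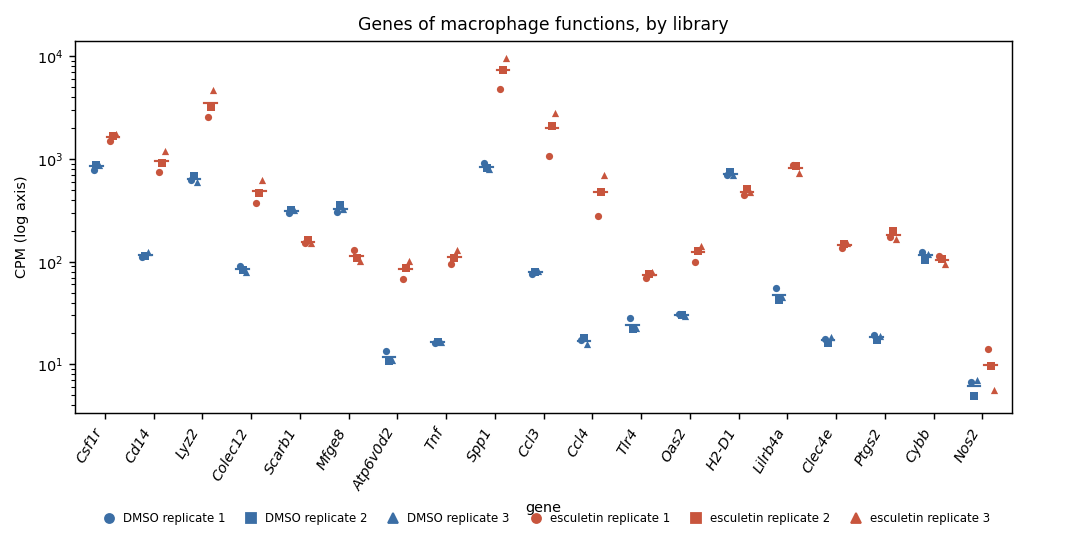
Levels in CPM (log axis) of 19 genes of macrophage functions in each library, blue for DMSO and red for esculetin, with the symbol giving the replicate and the short line the mean of the 3 libraries. Ccl4, Lilrb4a and Ccl3 lie above their DMSO libraries by the widest gaps on this axis, followed by Ptgs2 and Clec4e. Scarb1, Mfge8 and H2-D1 lie below their DMSO libraries, and the groups of Cybb and Nos2 overlap.

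Early response genes were higher after the 24 h of treatment. Of 19 tested members 15 were called higher and 2 lower, with a median of 1.45. Fos and Jun, which form the factor AP-1, went from 5.03, 6.72 and 5.30 to 42.8, 46.5 and 38.9 CPM and from 40.8, 43.99 and 45.04 to 253, 220.3 and 178 CPM. Atf3 went from 58.6, 63.8 and 61.8 to 212, 267 and 276 CPM. In each of these genes all esculetin libraries lay above all DMSO libraries, and Jun was highest in esculetin replicate 1. Nr4a1 and Srf were not called, at -0.14 and -0.26. The phosphatases and adaptors that switch MAP kinases off were called higher in 9 of 17 tested cases and lower in 2. Dusp5, which acts on ERK in the nucleus, went from 4.41, 4.89 and 4.62 to 48.1, 65.4 and 86.7 CPM, and Dusp1 and Dusp6 rose by 1.55 and 1.53. The lower members were Etv5 (-0.52) and Dusp16 (-0.37), and Spry2, an antagonist of receptor kinases, was not called, at -0.00 ± 0.15 (SE). Of 27 tested genes of CSF1 and growth factor signalling 11 were called higher and 4 lower. Csf2rb2, a β chain of the interleukin 3 receptor, went from 5.29, 4.57 and 4.33 to 33.5, 41.1 and 58.4 CPM and Map2k1 rose by 0.95, whereas Mapk3 and Akt2 fell by 0.59 and 0.58.

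In lipid metabolism, synthesis genes were lower and storage genes were split. Of 27 tested genes of cholesterol synthesis 16 were called lower and 6 higher, with a median of -0.41. Srebf2, the master factor of the pathway, went from 651, 706 and 711 to 343, 367 and 376 CPM, Pmvk from 84.6, 90.1 and 83.6 to 25.6, 27.2 and 22.98 CPM and Dhcr7, the last enzyme of a branch, from 100.5, 113 and 122 to 42.2, 43.2 and 38.4 CPM. Hmgcs1 and Idi1 were not called, at 0.05 and -0.07. Sqle and Sc5d went against the list and rose by 0.56 and 0.82. Of 19 tested genes of cholesterol esterification, hydrolysis and efflux 8 were called higher and 8 lower. Abcg1, which exports cholesterol to high-density lipoprotein, went from 88.4, 77.6 and 82.4 to 29.9, 28.6 and 23.7 CPM, and Abcg4 from 8.86, 7.42 and 8.999 to 1.83, 0.818 and 0.446 CPM. Abca1 had 1, 1 and 2 counts with DMSO and 9, 13 and 9 with esculetin, and was not tested. Soat1, which esterifies cholesterol for storage, rose by 0.55, and Nceh1, which hydrolyses the ester again, by 0.72. Apoe, at 10.6, 11.3 and 8.76 CPM with DMSO, fell by 1.06.

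Fatty acid and triglyceride synthesis was called lower in 13 of 26 tested genes and higher in 5. Scd1, a desaturase, went from 466, 502 and 487 to 224, 211 and 154 CPM, its relative Scd2 from 3563, 3586 and 3558 to 1984, 1966 and 1757 CPM, and Acaca, which makes malonyl-CoA, from 153, 148 and 153 to 66.2, 79.6 and 79.9 CPM. Acacb, its mitochondrial form, went from 8.09, 7.10 and 9.05 to 1.54, 2.45 and 0.892 CPM, and Fasn fell by 0.71. Acly, which supplies acetyl-CoA from citrate, was not called, at -0.07. Of 17 tested genes of droplets, lipolysis and uptake 8 were called higher and 6 lower. Plin2, which coats lipid droplets (ENSMUSG00000028494, chromosome 4, 86565912 to 86588459), went from 37.4, 36.3 and 36.1 to 256, 353 and 506 CPM, and Hilpda, an inhibitor of lipolysis on droplets, from 28.7, 28.02 and 24.4 to 159, 176 and 197 CPM. Pnpla2, the lipase that Hilpda blocks, fell by 0.59. The fatty acid transporters Slc27a1 and Slc27a4 rose by 1.01 and 1.33, Fabp5 went from 86.7, 97.1 and 90.8 to 39.8, 43.7 and 45.1 CPM, and Lpl, lipoprotein lipase, rose by 0.53. Fatty acid oxidation was called lower in 9 of 18 tested genes and higher in 2. Echs1 of the mitochondrial spiral fell by 1.33, Hadh of the same pathway had a log2 fold change of -1.003, and Cpt1a, the gate of entry, rose by 0.44.

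Glycolysis and hypoxia genes were called higher in 12 of 29 tested cases and lower in 6. The glucose transporter Slc2a1 went from 456, 513 and 501 to 1010.2, 1209 and 1367 CPM, Hk3, a hexokinase of leukocytes, from 43.1, 47.9 and 50.3 to 156, 182 and 234 CPM, and Pfkl rose by 0.85. Lower in the pathway, Aldoa, Pgam1 and Pgk1 fell by 0.54, 0.42 and 0.29, and Eno1, Pkm and Ldha were not called, at -0.04, 0.05 and -0.04. Nuclear genes of oxidative phosphorylation were called lower in 33 of 42 cases and higher in 1, with a median of -0.46. The log2 fold changes of the list ranged from -0.90 to 0.36. Among the falls were those of Ndufv1 of complex I (-0.90), Sdhb of complex II (-0.83), Uqcrc2 of complex III (-0.55), Cox6a1 of complex IV (-0.89) and Atp5f1b of the ATP synthase (-0.77). The mitochondrial genome showed no such fall. Of its 13 protein genes 6 were called higher and 1, mt-Nd3, lower (-0.97), and mt-Cytb went from 1992, 1679.9 and 1784 to 4368, 4171 and 3708 CPM, while mt-Co1 and mt-Nd5 were not called, at -0.13 and 0.02. Coenzyme Q synthesis was called lower in 7 of 13 genes and higher in 1. Coq8a, a kinase-like member, went from 28.2, 37.97 and 34.6 to 5.12, 3.14 and 1.78 CPM, with a log2 fold change of -3.36 ± 0.27 (SE), far from the next fall, that of its relative Coq8b, at -1.08. Of 50 tested cytosolic ribosomal protein genes 40 were called lower and 1 higher, again by small steps, with a median of -0.46 and the largest fall in Rps2, at -1.07.

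The lists of stress pathways differed in direction. Of 28 tested genes of Nrf2 and antioxidant defence 11 were called higher and 9 lower. Hmox1, which breaks down haem (ENSMUSG00000005413, chromosome 8, 75820241 to 75827217), went from 318, 360.0 and 362 to 3582, 4758 and 6500.1 CPM, a log2 fold change of 3.84 ± 0.20 (SE). Srxn1 and Gclm, which serve peroxiredoxin repair and glutathione synthesis, went from 20.8, 22.5 and 22.7 to 59.6, 87.3 and 115 CPM and from 60.6, 68.6 and 65.6 to 124, 147 and 193 CPM. Other targets fell, such as Gstm1 (-1.95) and Txn1 (-0.79), Keap1 was not called, at -0.16, and Nqo1 was nearly absent, with 1, 3 and 0 counts against 0, 2 and 0. Iron genes were called higher in 9 of 16 tested cases and lower in 3, and the lower ones, Ncoa4, Slc11a1 and Steap3, numbered 0 without DMSO replicate 3 and 1 without DMSO replicate 2 or esculetin replicate 1. Tfrc, the transferrin receptor (ENSMUSG00000022797, chromosome 16, 32427556 to 32451612), went from 68.01, 51.1 and 55.02 to 855, 1003 and 1181 CPM. Slc40a1, which encodes the iron exporter ferroportin, went from 22.2, 21.2 and 19.4 to 141, 181 and 178 CPM. Genes of import and export were higher side by side, together with Slc39a14 (1.60) and the metallothionein Mt1 (1.62).

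Genes of the amino acid response under ATF4 fell in most cases. Of 25 tested members 15 were called lower and 4 higher, with a median of -0.997. Asns, asparagine synthetase, went from 224, 242 and 239.5 to 40.3, 42.2 and 60.1 CPM, Phgdh, the first enzyme of serine synthesis, from 201, 234 and 230.2 to 62.5, 58.3 and 67.4 CPM, and the amino acid transporter Slc7a5 from 107, 125 and 126 to 31.8, 37.6 and 48.5 CPM. Esculetin replicate 3 was the highest of its group in Asns and Slc7a5, and remained far below the DMSO libraries. Atf4 itself was not called, at -0.05 ± 0.10 (SE), and neither were its targets Trib3 and Chac1, at -0.38 and 0.23, while Ddit3 and Slc7a11 rose by 0.65 and 0.78. The letters TGATGNAA of the composite site for C/EBP and ATF factors were found in the promoters of 5 of the 25 genes, Ddit3, Chac1, Slc7a11, Gpt2 and Pck2, and in 2.1% of all tested protein-coding genes. Of these Ddit3 and Slc7a11 were called higher and Gpt2 (-1.48) and Pck2 (-2.11) lower. Chaperones of the endoplasmic reticulum were called higher in 7 of 22 cases and lower in 4, 8 lower without esculetin replicate 3. Hspa5, the main sensor chaperone, was not called, at -0.15 ± 0.11 (SE). Heat shock genes were called higher in 5 of 16 tested cases and lower in 5. The genes of both cytosolic HSP90 forms moved apart, with the inducible Hsp90aa1 going from 276, 198 and 203 to 522, 549.9 and 583 CPM and the constant Hsp90ab1 from 3537, 3877 and 3809 to 1655, 1877 and 2082 CPM. Of the targets of the aryl hydrocarbon receptor, which binds planar aromatic compounds, Tiparp rose by 0.94, Cyp1a1 had 4, 3 and 2 counts with DMSO and 3, 6 and 0 with esculetin, and the receptor gene Ahr had 0, 0 and 0 and 0, 2 and 0.

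**Figure D5:**
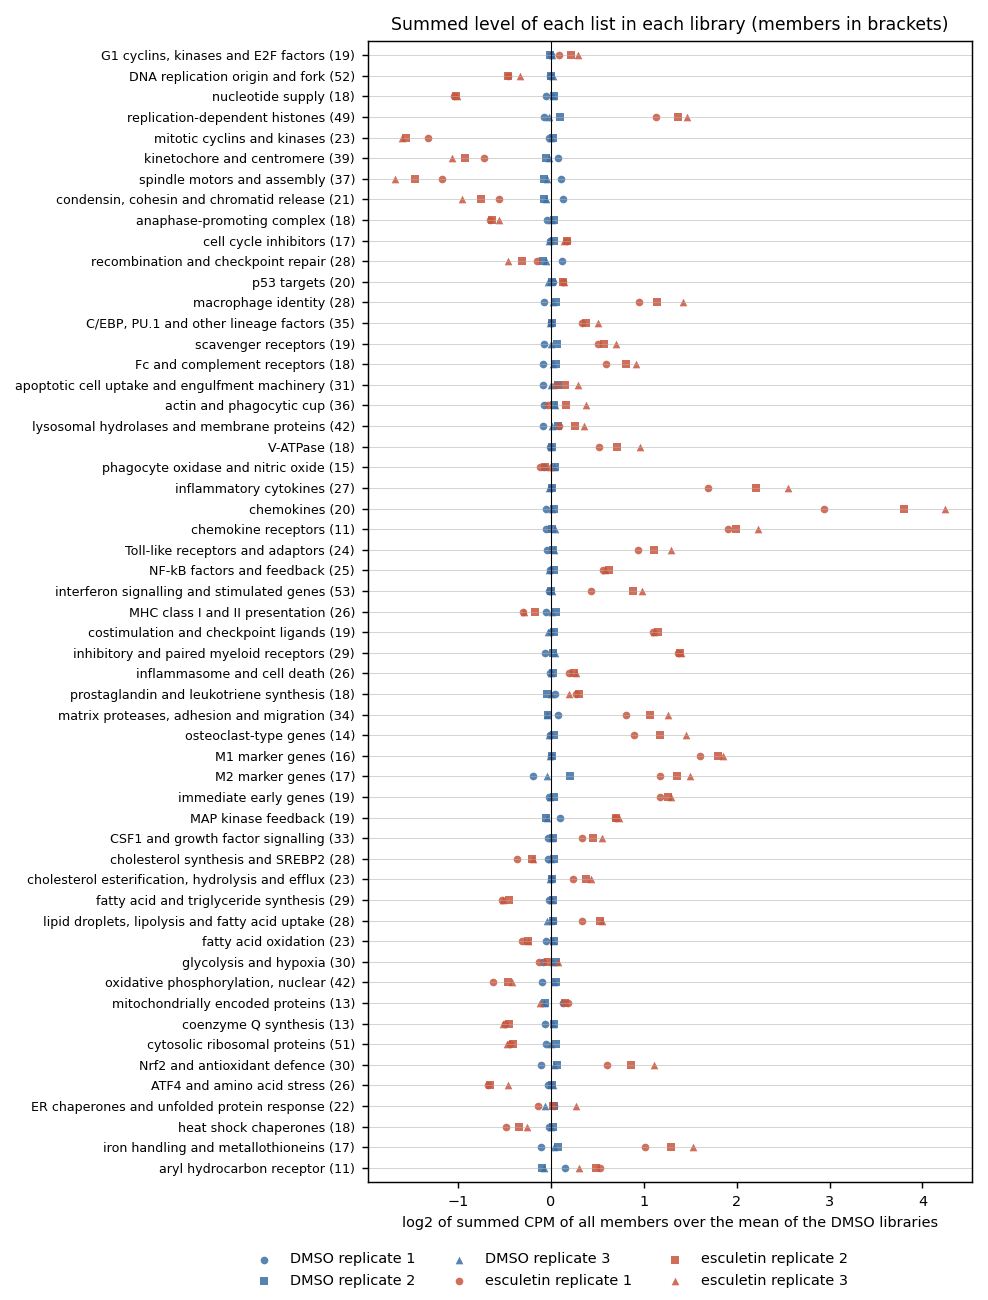
Each symbol is the summed CPM of all members of a list in 1 library, as the log2 ratio to the mean of the DMSO libraries, blue for DMSO and red for esculetin, with the symbol giving the replicate and the number of members in brackets. Chemokines stand farthest to the right, mitotic cyclins and spindle genes farthest to the left, and in the lists far to the right esculetin replicate 1 lies nearest to the DMSO libraries.

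The order among the esculetin libraries that recurred in these genes was also frequent over the whole table, but it was not uniform. Among the 3812 genes called higher, esculetin replicate 1 was the nearest of its group to DMSO in 54.1% and replicate 3 the farthest in 51.7%. Among the 3855 called lower, replicate 1 was nearest in 43.5% and replicate 3 farthest in 44.9%, while replicate 1 was itself the farthest in 31.6%. Summed levels show the same order in the chemokine list, at 257, 272 and 268 CPM with DMSO and 2043, 3709 and 5027 CPM with esculetin, and in the spindle list, at 2985, 2619.9 and 2695 and 1222, 1001 and 865 CPM. It did not hold in every list that fell. Nuclear oxidative phosphorylation stood at 8205, 9083 and 8978 CPM with DMSO and 5681, 6337 and 6541 CPM with esculetin. The ATF4 list stood at 3266, 3383 and 3394 and at 2090, 2122 and 2427 CPM. In both, esculetin replicate 1 was the farthest from DMSO. The part of RNA quality or of the strength of the response in the order of the libraries was not tested.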

How the data were processed

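RNA from RAW264.7 cells was extracted with Trizol and sequenced as paired ends. The authors aligned the reads to the mouse genome GRCm39 with HISAT2 2.2.1 and counted them per gene with featureCounts, and the values used here are these deposited raw counts of 6 libraries. The processing notes also name mm10 without a role. The annotation release, the strand setting, the selection of RNA and the handling of reads with several matches are not given in the sources used here, so antisense genes and close copies cannot be told apart with certainty. The liver libraries of the study were not used here, and columns without a sample numbered 0.

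Of 55357 gene identifiers 54749 were found in GENCODE M39 and given its symbols and GRCm39 coordinates, and the 608 others kept their identifier. Genes were kept by the filter of edgeR 4.0.16 (filterByExpr), scaled with TMM factors and tested with edgeR's quasi-likelihood test (glmQLFit and glmQLFTest) with treatment as the only term, followed by Benjamini-Hochberg adjustment (R 4.3.3). Genes with an adjusted p-value under 0.05 were called higher or lower. The common biological coefficient of variation was 11.8%, and library totals between 13752842 and 20001959 limit precision mainly in genes under 1 CPM. CPM use TMM-scaled library sizes, and fold changes are those of the quasi-likelihood fit at the default prior count of edgeR. The values marked SE are the absolute log2 fold change divided by the square root of the F statistic of the quasi-likelihood test. They are therefore approximate. A prior count of 2 was used for the log2 CPM behind the correlations between libraries. Promoters are the 250 bases before the start of the canonical GENCODE transcript in GRCm39, and 11163 tested protein-coding genes had one.

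The lists (61 with 1372 symbols, of which 1141 were tested) and their members were chosen with earlier results of these data known. Named are the 12 largest rises and falls among genes that average 50 CPM or more and whose groups do not overlap, in each list the members with its main role and up to 4 called members with the smallest p-value, the 10 most abundant genes, members below the filter by their counts, and cell type markers. Other members named were chosen after their values were seen. Some members counted in the lists are not reported here by name. The criterion of the study, limma with unadjusted p-values below 0.05 and fold changes above 1.5, was run as an alternative with limma-voom (limma 3.58.1), beside DESeq2 1.42.0, other scalings, filters and thresholds, thinning, a replicate block and the omission of each library. The default fits of edgeR, limma-voom and DESeq2 were first run on simulated counts, and the other settings were not. Figures were drawn with matplotlib 3.10.9.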

Additional observations from a re-analysis of the deposited data

How the results depend on the processing

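The number of called genes, 7667 with 3812 higher and 3855 lower, was most sensitive to thresholds. It was 5041 under the criterion of the study with limma-voom, of which 2490 were lower, 4841 with a fold change over 1.5 (2493 higher and 2348 lower) and 2537 with a fold change over 2 (1412 higher and 1125 lower). The paper itself reports fewer genes in each direction than the limma-voom fit under its criterion, and the reason for this difference was not tested. Leaving out 1 library at a time gave 6518 to 7910 called genes, 3273 to 3922 of them higher and 3209 to 3988 lower. Other tools and scalings moved it little, with 7436 called by DESeq2, 7719 by limma-voom, 7691 with RLE and 7711 with upper quartile factors. Scaling by library size alone called 7734, with 3396 higher and 4338 lower, and moved the median log2 fold change of all genes from -0.01 to -0.08. Without a filter 8061 of 25562 genes were called, with a filter at a mean of 10 CPM 5832 of 8831, after thinning to the smallest library 7481 of 12776, and among protein-coding genes 6936 of 11176. Of the called genes, 0 changed sign in any of these settings, except 3 without esculetin replicate 1, Lars2, Rn18s-rs5 and Gm55118. Of the 389 named genes that were tested, 4 to 18 lost their call without 1 library, 9 with library size only, 8 without a filter, 1 with RLE factors, 3 with DESeq2, 2 with limma-voom, 24 at an adjusted p-value under 0.01, 58 under the criterion of the study and 129 with a fold change over 2, and 0 with the replicate block. Named genes that were not called changed sign around 0 in places. With library size only Atr stood at -0.048, Cdc6 at -0.026, Cyba at -0.033, Hmgcs1 at -0.012, Mcl1 at -0.055, Ncf1 at -0.019, P4hb at -0.029, Pkm at -0.019, Rb1 at -0.019, Smc1a at -0.053 and mt-Nd5 at -0.043. Without a filter Atr stood at -0.029, Cdc6 at -0.00301, Cyba at -0.00871, Mcl1 at -0.034, P4hb at -0.00651, Rb1 at -0.00378, Smc1a at -0.032 and mt-Nd5 at -0.024. After thinning Cdc6 stood at -0.017 and Tnfrsf11a at 0.021. With limma-voom, for the test at adjusted p-values and for the criterion of the study alike, Atr stood at -0.00717, Rb1 at -0.00801, Spry2 at 0.00131 and mt-Nd5 at -0.00171. With the replicate block Spry2 stood at 0.00128 and mt-Nd5 at -0.000329. With RLE factors Spry2 stood at 0.014. With upper quartile factors Spry2 stood at 0.00165. With DESeq2 Spry2 stood at 0.014. With a filter at 1 CPM Spry2 stood at 0.012. Over the fits without 1 library the log2 fold change ranged from -0.142 to 0.033 for Acly, -0.163 to 0.089 for Aim2, -0.158 to 0.024 for Atf4, -0.195 to 0.053 for Atm, -0.161 to 0.163 for Atr, -0.234 to 0.011 for Bub1, -0.00593 to 0.091 for Cdc6, -0.097 to 0.117 for Cyba, -0.142 to 0.052 for Eno1, -0.083 to 0.264 for Fcgr1, -0.069 to 0.015 for H2-K1, -0.136 to 0.016 for Idi1, -0.244 to 0.059 for Kif15, -0.169 to 0.048 for Ldha, -0.058 to 0.014 for Lipa, -0.00637 to 0.031 for Mcl1, -0.013 to 0.091 for P4hb, -0.063 to 0.144 for Pkm, -0.173 to 0.267 for Rb1, -0.145 to 0.027 for Relb, -0.083 to 0.014 for Ripk3, -0.223 to 0.052 for Slfn3, -0.079 to 0.158 for Smc1a, -0.087 to 0.101 for Spry2, -0.048 to 0.015 for Tnfrsf11a and -0.172 to 0.129 for mt-Nd5.

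Whether replicate numbers pair the libraries cannot be settled with 3 libraries in each group. The correlations of same-numbered libraries' deviations from their group means were 0.16, -0.03 and 0.08. Those of differently numbered libraries ranged from -0.17 to 0.11. DMSO replicates 1 and 3 correlated best with the esculetin library of their own number, and DMSO replicate 2 with esculetin replicate 3 (0.11). With the replicate block 7982 genes were called, 3939 higher and 4043 lower.

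Of the 122 counts of list members called higher or lower, 122 stayed within 1.5 times with RLE factors and with DESeq2, 120 with the replicate block, 113 with library size only and 110 to 119 without 1 library. With a fold change over 2 only 40 did. CPM are shares of a library, changes in RNA per cell were not measured, and genes of few counts had little power.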

Other observations

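Several gene families outside the lists moved as groups and were chosen after their values were seen, so their counts are descriptions, beside 28.7% of all tested genes called higher and 29.0% lower. Of 7 tested Schlafen genes, a family of growth regulators and nucleases that interferon induces, 6 were called higher and 0 lower, with a median log2 fold change of 2.21. Slfn8 went from 1.503, 1.45 and 1.65 CPM with DMSO to 15.7, 22.6 and 23.1 CPM with esculetin and Slfn5 from 7.52, 6.78 and 5.84 to 37.1, 66.2 and 70.8 CPM, and Slfn3 was not called, at -0.13 ± 0.18 (SE). Of 9 tested members of the Ifi200 family, which sense DNA in the nucleus and cytosol, 8 were called higher and 0 lower. Ifi202b went from 4.98, 2.96 and 2.38 to 64.04, 104 and 109 CPM, and Aim2 was not called, at -0.03 ± 0.13 (SE). Members of both families are close copies, so their reads may be shared.

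Enzymes of amino acid supply and use fell beside the ATF4 list. Of 20 cytosolic aminoacyl-tRNA synthetases, which load amino acids on their tRNA, 13 were called lower and 3 higher, with a median of -0.57. Vars1 went from 528, 590.3 and 599 to 174, 149 and 135 CPM. Of 14 tested genes of methionine and proline synthesis 10 were called lower and 2 higher. Pycr1, the last enzyme of proline synthesis, went from 21.9, 26.5 and 29.1 to 5.42, 5.25 and 5.97 CPM, and Aldh18a1, its first enzyme, fell by 1.76. Against them Mat2a, which makes S-adenosylmethionine, went from 36.1, 29.5 and 30.5 to 125, 139.9 and 190.3 CPM, whereas Ahcy, further along the same cycle, fell by 1.67. Polyamine genes were split, with 5 of 15 called higher and 7 lower. Odc1, the rate-limiting enzyme, went from 143, 146 and 149 to 638, 1068 and 1153 CPM, its inhibitor Oaz1 fell by 0.87, and Azin1, which relieves that inhibition, rose by 0.84.

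Smaller or mixed groups were those of the circadian clock, with 3 of 13 tested genes called higher and 5 lower, the constitutive proteasome, with 11 of 31 higher and 7 lower, and the Notch pathway, with 4 of 9 tested higher and 1 lower. In the clock Nr1d1, the repressor REV-ERBα, went from 67.1, 75.2 and 69.5 to 23.4, 20.5 and 14.3 CPM, Dbp fell by 1.59, Per1 fell by 1.13, and Bmal1, which Nr1d1 represses, rose by 0.52. The time of day at harvest is not given in the sources used here, and its part in these values was not tested. RAW264.7 cells also expressed a few genes of B lymphocytes, of which 5 of 17 were tested, 2 called lower and 0 higher. Ighm, the heavy chain of immunoglobulin M, went from 169.9, 182 and 183 to 55.8, 43.3 and 28.4 CPM and the adaptor Blnk from 45.2, 45.6 and 47.1 to 13.2, 9.47 and 7.47 CPM.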
